A study of Mus musculus with 8 samples.

Results

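The 29 genes described here make, sense, move, store or export cholesterol, and were matched by gene symbol among the 55414 genes measured by RNA-seq in cultured B16F10 cells, a mouse melanoma line. They comprise 18 synthesis genes, 5 sterol-sensing genes, 3 genes that transport sterol inside the cell after uptake, and 3 genes of efflux and esterification. Cyclophilin D (CypD) is a mitochondrial regulator of the permeability transition pore and is encoded by *Ppif*. WT and CypD KO cells were kept for 24 h at 21% O2, and stable lines carrying the empty vector pcDNA (Control) or a CypD expression plasmid (CypD OE) were kept for 24 h at 1% O2, with 2 libraries in each of the 4 groups. The CypD KO cells were edited with CRISPR/Cas9 and derived from puromycin-selected clones, and the overexpressing and Control cells were stable transfectants. The number of clones, and whether both libraries of a group came from separate cultures, are not stated, so the p-values below measure only the spread between these libraries. Control and WT differed in oxygen and in the vector and selection of a stable line, and these cannot be told apart. CypD KO and WT differed in editing and in puromycin selection, as no selection is stated for WT. CypD KO and Control differed in oxygen, editing, plasmid and selection. In these pairs too the parts cannot be told apart.

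Cells build cholesterol from acetyl-CoA through mevalonate and farnesyl diphosphate, then through squalene, lanosterol and a series of sterol intermediates, several of which are oxidised with molecular oxygen. When sterol in the endoplasmic reticulum is low, SCAP escorts the SREBP transcription factors to the Golgi, where they are cleaved and then raise transcription of synthesis and uptake genes, and when it is high, INSIG proteins retain SCAP in the endoplasmic reticulum. Sterol that arrives by endocytosis leaves the lysosome through NPC2 and NPC1, surplus sterol is esterified by SOAT1, and ABC transporters export it from the cell.

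The targeted gene was examined first. In TPM, the length-scaled share of transcripts, *Ppif* measured 50.7 and 50.0 for WT, 10.4 and 12.1 for CypD KO, 44.6 and 42.3 for Control, and 50.3 and 49.3 for the pair of libraries labelled CypD OE. Their log2 difference from Control was 0.19 ± 0.07 (SE), which missed the threshold of 0.05 (limma adjusted p = 0.0794). In *Ppif* RNA, the 2 libraries labelled CypD OE thus lay at the level of WT, which was kept at a different oxygen level. For the stable cells, the paper reports overexpression of CypD protein by western blot. Protein was not measured in these data, and whether transcripts from the plasmid were counted as *Ppif* was not tested. The label CypD OE is kept below as the submitters gave it. All 7 melanocyte lineage markers were at or above 1 TPM in every library, and their summed level was 15665 to 15755 TPM in WT, 12433 to 12587 in CypD KO, 20446 to 20984 in Control and 13586 to 13758 in CypD OE. *Tyr*, the tyrosinase gene, went against that sum in CypD KO, at 167 and 147 TPM beside 37.4 and 41.3 TPM in WT. In CypD OE against WT, 3 of the 7 markers were higher and 4 lower, beside 14.0% and 13.7% of all genes tested. *Mlana* was among the higher ones, at 2034 and 2067 TPM beside 1540 and 1511 TPM in WT. In bulk RNA, fewer cells of a type and less RNA per cell cannot be told apart. The part of these marker differences in the results below was not tested. The leukocyte markers summed to at most 0.43 TPM, the endothelial markers to at most 1.18 TPM and the fibroblast markers to at most 3.13 TPM in any library, and both keratinocyte markers were listed at 0.

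The sequences upstream of 5 genes are shown because *Insig2*, *Hsd17b7* and *Soat1* had the widest ranges of level among the members, because *Insig1* had the largest fall in CypD KO, and because *Hmgcs1* was the member whose window held a classical sterol regulatory element core. They run from 5′ to 3′ toward the annotated start in the RefSeq table of assembly GRCm38.p6, were placed in GRCm39 by exact match, and, except for *Hmgcs1*, where none overlapped, were shortened to leave out bases that lie in an exon of the same gene in the GENCODE annotation. Capitals mark matches, on either strand, to TCACNCCAC (sterol regulatory element core), CCAAT (NF-Y site core), CACGTG (palindromic E-box), and GCGTG and ACGTG (forms of the hypoxia response element core), where each CACGTG also holds ACGTG on both strands.
*Soat1* (chr1:156301902-156302148, minus strand): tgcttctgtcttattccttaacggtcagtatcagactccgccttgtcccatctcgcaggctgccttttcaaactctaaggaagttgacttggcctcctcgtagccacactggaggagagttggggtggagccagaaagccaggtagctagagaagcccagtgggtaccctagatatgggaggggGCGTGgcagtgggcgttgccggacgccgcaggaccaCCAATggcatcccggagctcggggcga
*Insig1* (chr5:28276160-28276314, plus strand): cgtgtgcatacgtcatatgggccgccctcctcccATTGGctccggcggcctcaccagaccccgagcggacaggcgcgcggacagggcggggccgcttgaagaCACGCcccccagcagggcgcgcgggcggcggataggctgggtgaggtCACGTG
*Insig2* (chr1:121255795-121256003, minus strand): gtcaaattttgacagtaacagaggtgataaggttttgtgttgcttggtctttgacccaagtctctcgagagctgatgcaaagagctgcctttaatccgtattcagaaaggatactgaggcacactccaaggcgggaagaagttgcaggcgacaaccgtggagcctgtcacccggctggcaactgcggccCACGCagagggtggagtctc
*Hsd17b7* (chr1:169796814-169797024, minus strand): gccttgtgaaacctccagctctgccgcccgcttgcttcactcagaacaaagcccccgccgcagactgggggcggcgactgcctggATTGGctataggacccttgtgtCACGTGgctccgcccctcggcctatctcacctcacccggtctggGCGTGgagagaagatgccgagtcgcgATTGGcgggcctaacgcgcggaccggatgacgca
*Hmgcs1* (chr13:120151637-120151886, plus strand): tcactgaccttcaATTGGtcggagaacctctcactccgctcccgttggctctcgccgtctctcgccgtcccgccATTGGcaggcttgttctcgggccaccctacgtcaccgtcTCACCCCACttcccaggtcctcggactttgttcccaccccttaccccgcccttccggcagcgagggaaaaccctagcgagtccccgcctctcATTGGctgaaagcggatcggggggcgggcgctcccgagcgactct
*Insig2* has 3 annotated windows, and the one shown is the farthest upstream of those that hold GCGTG. Its CCAAT matches lie in a window that is not shown. The *Soat1* and *Insig2* windows lie within the span of the annotated gene, upstream of an internal start site.

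Across the 250 bases before the start, 23 of the 29 members had a window in the table, with 31 windows in all, against 32851 windows for all genes. *Fdft1*, *Fdps*, *Sqle*, *Stard4*, *Abcg1* and *Npc1* had none. CCAAT was found in 21 of 31 member windows (67.7%) and in 33.8% of all windows, and GCGTG in 16 (51.6%) against 28.2%. TCACNCCAC was found in 1 member window (*Hmgcs1*) and in 1.05% of all windows. CACGTG was found in 6 member windows (19.4%), in *Hsd17b7*, *Sc5d*, *Dhcr7*, *Insig1*, *Scap* and *Abca1*, and in 6.02% of all windows. ACGTG was found in the windows of the same 6 genes, and in 16.6% of all windows. The windows of all genes were not limited to expressed genes or to windows of like base content, so the shares are not a test of enrichment. These matches describe letters in a window and say nothing of whether a factor binds there.

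**Figure D1:**
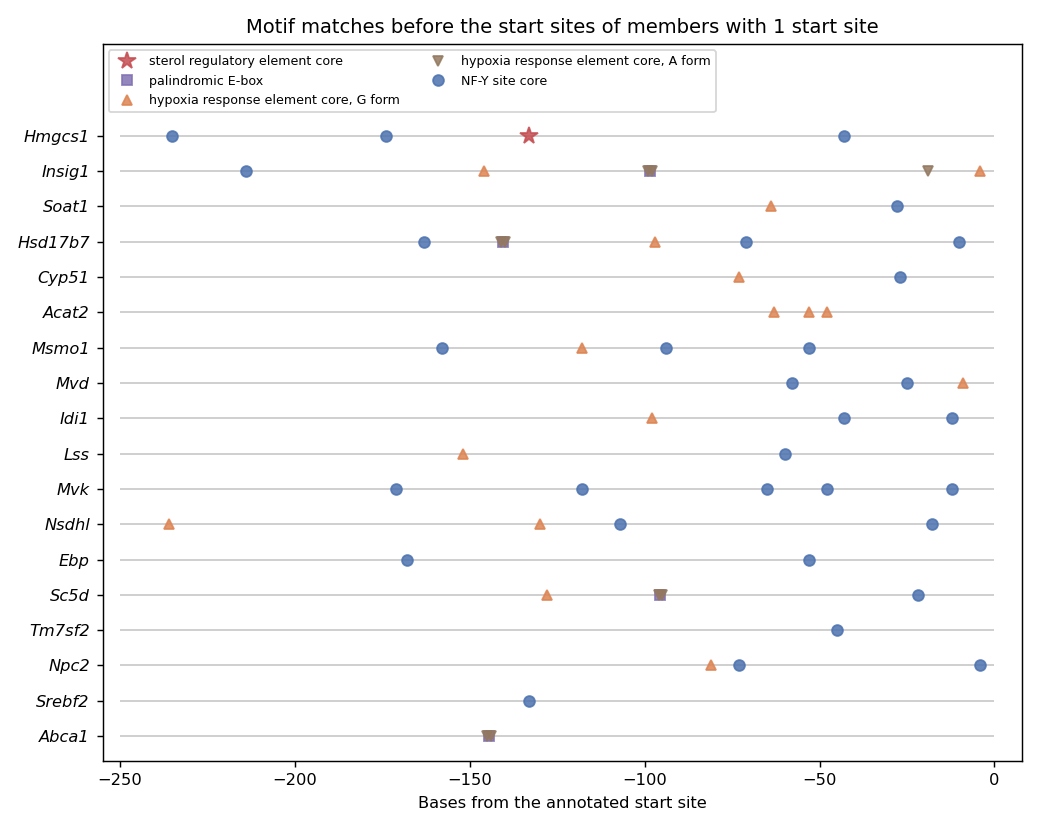
Positions of the 5 motif matches in the 250 bases before the annotated start (x axis, bases from the start) for the 18 members with 1 annotated window, 1 line per gene and 1 symbol per motif. *Hmgcs1* holds the 1 star, for the sterol regulatory element core, and circles for CCAAT are spread over most lines.

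The members ranged widely in level. *Fdps*, which makes farnesyl diphosphate, had the highest mean over the 8 libraries at 171 TPM, followed by *Soat1* at 135 TPM and the sterol demethylation gene *Msmo1* at 109 TPM. *Abca1*, which exports cholesterol to apolipoproteins, averaged 2.93 TPM, and *Abcg1*, another exporter, was listed at 0 in all 8 libraries and was not tested. Coordinates below are those of whole genes in GRCm39. Since TPM is scaled by transcript length, these levels can be set beside each other. The ratio of the highest to the lowest library was 3.29 for *Insig2*, 2.95 for *Hsd17b7* and 2.72 for *Soat1*, and it was smallest, at 1.25, for *Stard4*, a carrier of cholesterol through the cytosol. The median absolute log2 difference between the 2 libraries of a group was 0.05 to 0.08 over the members.

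**Figure D2:**
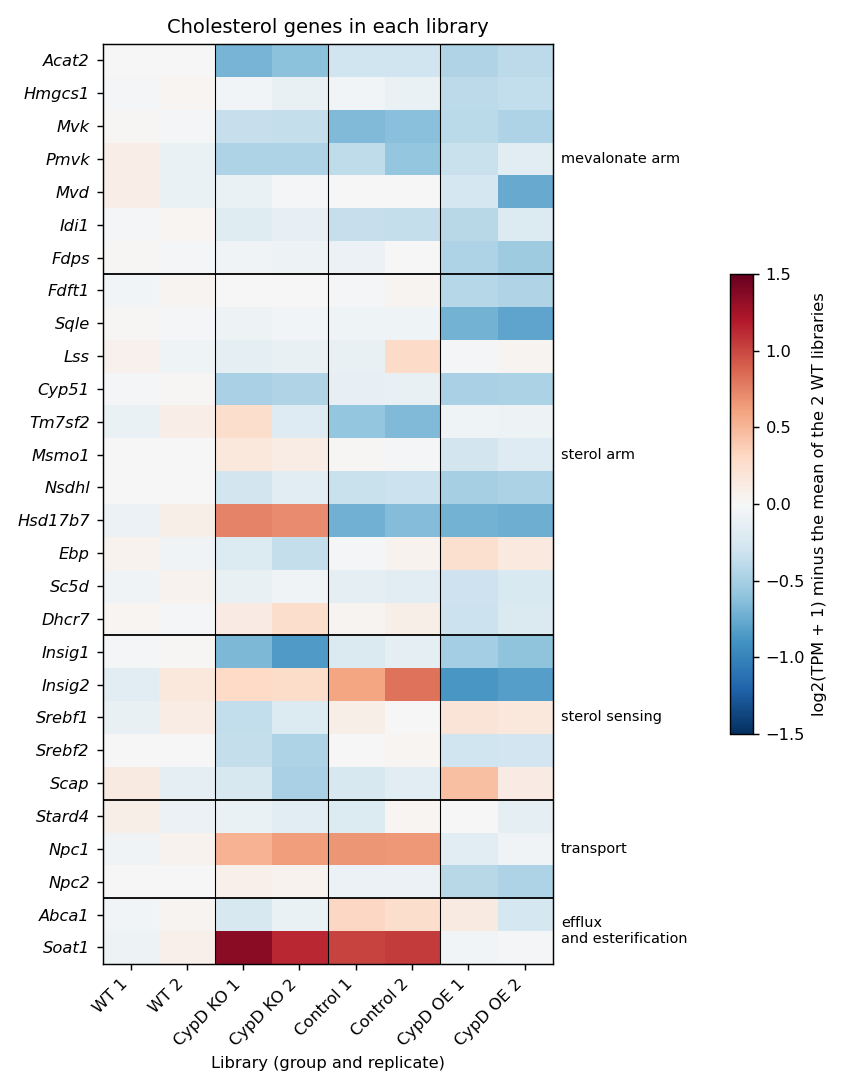
Log2(TPM + 1) of the 28 tested members (rows, grouped by role) in each of the 8 libraries (columns), as the difference from the mean of the 2 WT libraries, with red higher and blue lower. *Soat1* and *Npc1* are red in CypD KO and Control and near white in CypD OE, whereas most synthesis genes are blue in CypD OE.

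The test covered 13526 genes that reached 1 TPM in 2 or more libraries, 28 members among them. In CypD KO against WT, 5 members were higher and 9 lower, where 30.1% of all genes tested were higher and 18.4% lower. For CypD OE against Control, 2 were higher and 14 lower, beside 19.0% and 18.3% of all genes. In Control against WT, 3 were higher and 8 lower, against 12.1% and 12.1%. For CypD OE against WT, 0 were higher and 17 lower, against 14.0% and 13.7%, and in CypD KO against Control, 5 were higher and 7 lower, against 27.4% and 16.5%. These comparisons share libraries and are not independent of each other. The median log2 fold change of the members was -0.10 in CypD KO against WT, where that of all genes was 0.09, and -0.27 in CypD OE against Control, where that of all genes was 0.00214.

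**Figure D3:**
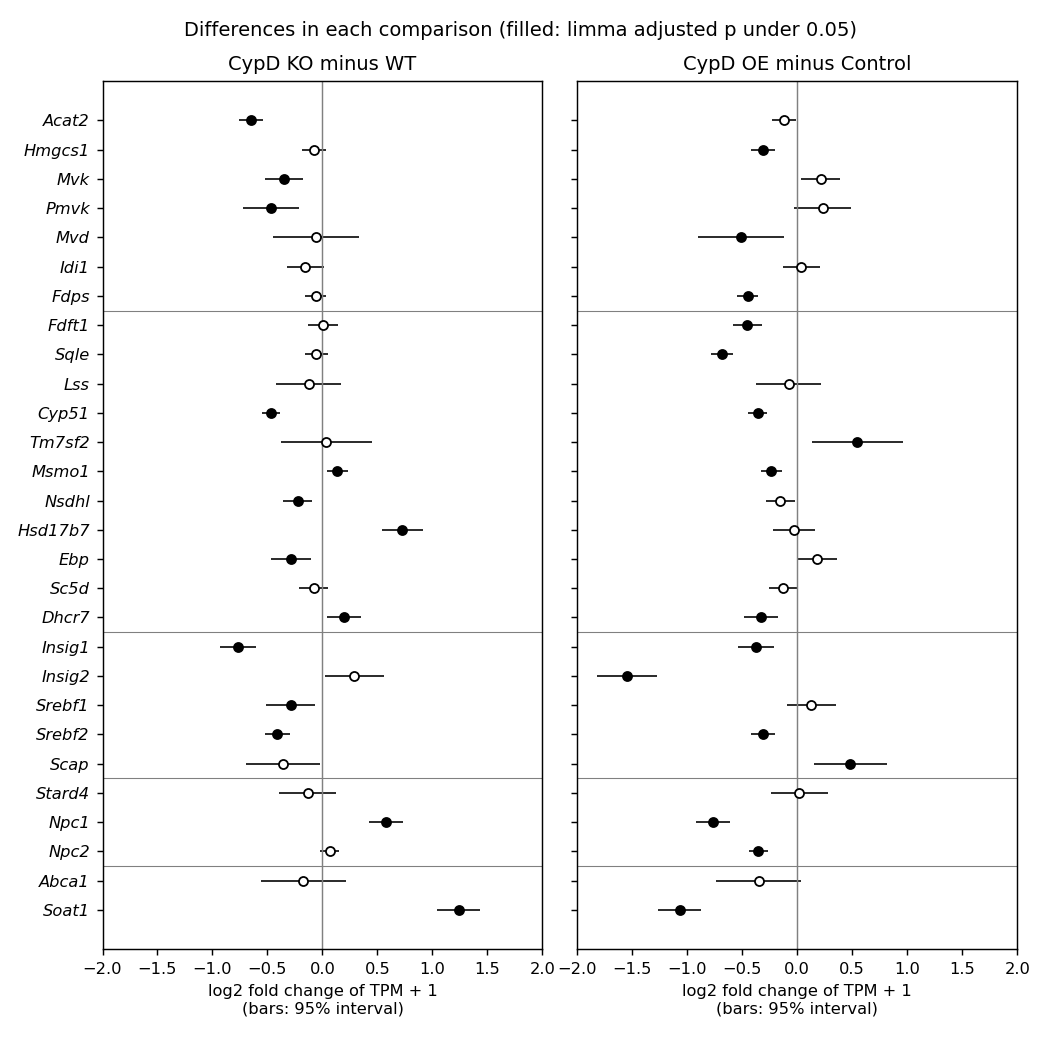
Log2 fold change of TPM + 1 (x axis) for each of the 28 tested members in CypD KO against WT (left) and CypD OE against Control (right), with bars for the 95% interval and filled points for a limma adjusted p under 0.05. *Soat1* lies farthest to the right on the left panel, at 1.24, and *Insig2* farthest to the left on the right panel, at -1.55.

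Of the storage and efflux genes, *Soat1* (ENSMUSG00000026600, chr1:156252095-156303864), which esterifies cholesterol for storage in lipid droplets, had the largest increase of the members in CypD KO. It stood at 79.5 and 88.9 TPM in WT, 216 and 185 TPM in CypD KO, 171 and 175 TPM in Control, and 81.5 and 82.8 TPM in CypD OE. Its level was thus high in both CypD KO and Control and low in both WT and CypD OE, with no overlap between the high and the low libraries. How many of all genes tested were split in this way was not counted. The log2 fold change was 1.24 ± 0.08 (SE, limma adjusted p = 4.39e-05) in CypD KO against WT and -1.07 ± 0.08 (limma adjusted p = 0.000139) in CypD OE against Control. It was 1.04 ± 0.08 in Control against WT (limma adjusted p = 0.000381). Between CypD OE and WT it was -0.03, with a 95% interval from -0.23 to 0.16 (limma adjusted p = 0.806), and in CypD KO against Control 0.20, with an interval from 0.01 to 0.40 (limma adjusted p = 0.0860). As a share of the summed TPM of the 18 synthesis genes, *Soat1* was 7.69% and 8.61% in WT, 22.6% and 19.2% in CypD KO, 18.2% and 18.3% in Control, and 10.4% and 10.4% in CypD OE. *Abca1* passed the threshold in 0 of the 5 comparisons. It was at 2.76 and 2.95 TPM in WT, 2.25 and 2.59 in CypD KO, 3.79 and 3.63 in Control, and 3.24 and 2.21 in CypD OE, and its log2 fold change was -0.17 (95% interval -0.56 to 0.21) in CypD KO against WT and -0.35 (-0.74 to 0.04) in CypD OE against Control.

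*Npc1*, the lysosomal membrane protein that releases cholesterol, was likewise high in CypD KO and Control and low in WT and CypD OE. How many of all genes tested split so was, again, not counted. *Npc1* stood at 35.6 and 38.4 TPM in WT, 53.5 and 57.9 in CypD KO, 59.3 and 58.6 in Control, and 33.1 and 35.5 in CypD OE. The log2 fold change was 0.58 ± 0.06 (SE) in CypD KO against WT (limma adjusted p = 0.000419), -0.77 ± 0.06 in CypD OE against Control (limma adjusted p = 0.000205) and 0.66 ± 0.06 in Control against WT (limma adjusted p = 0.000794). The soluble lysosomal sterol carrier *Npc2* was at 77.6 and 76.9 TPM in WT, 81.8 and 80.1 in CypD KO, 72.6 and 72.8 in Control, and 57.5 and 55.8 in CypD OE. *Npc2* fell in CypD OE against Control by 0.35 on the log2 scale (limma adjusted p = 0.000524), and in CypD KO against WT its change of 0.07 did not pass the threshold (limma adjusted p = 0.183). The ratio of *Npc1* to *Npc2* was 0.459 and 0.499 in WT, 0.654 and 0.722 in CypD KO, 0.817 and 0.805 in Control, and 0.576 and 0.636 in CypD OE. Both genes of the lysosomal pair thus fell in CypD OE against Control. In CypD KO against WT and in Control against WT, *Npc1* alone passed the threshold. *Stard4* stayed between 13.7 and 17.1 TPM in all 8 libraries and passed the threshold in 0 of the 5 comparisons.

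**Figure D4:**
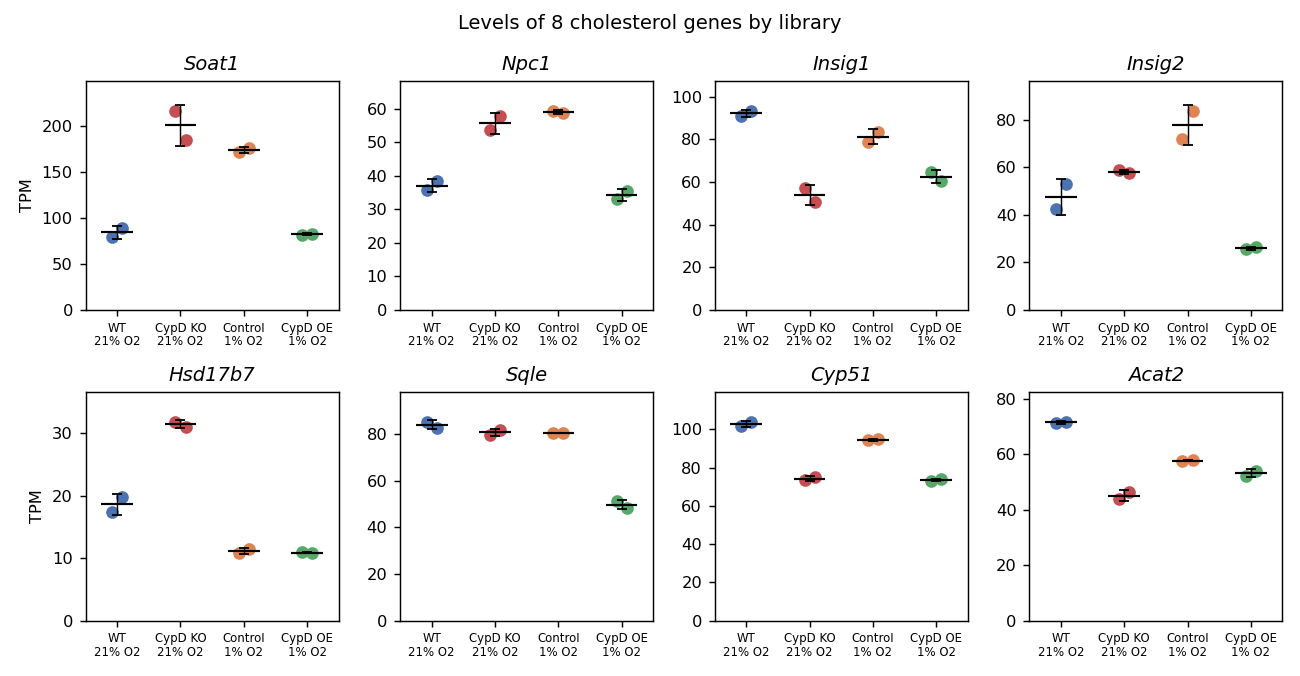
TPM (y axis, from 0) of *Soat1*, *Npc1*, *Insig1*, *Insig2*, *Hsd17b7*, *Sqle*, *Cyp51* and *Acat2* in the 4 groups, with a point per library, a line for the mean and bars for the SD (n = 2). *Soat1* and *Npc1* are high in CypD KO and Control, *Sqle* is low in CypD OE alone, and *Hsd17b7* is highest in CypD KO.

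The sterol-sensing genes differed from each other in their response. *Insig1* (ENSMUSG00000045294, chr5:28276315-28283668), itself a target of SREBP, stood at 91.2 and 93.4 TPM in WT, 57.4 and 50.6 in CypD KO, 79.0 and 83.7 in Control, and 64.5 and 60.3 in CypD OE. It fell by 0.77 on the log2 scale in CypD KO against WT (limma adjusted p = 0.000168) and by 0.38 in CypD OE against Control (limma adjusted p = 0.00579), so that CypD KO and CypD OE each lay below their own control. *Insig2* (ENSMUSG00000003721, chr1:121181760-121260400), whose protein also retains SCAP, stood at 42.2 and 52.9 TPM in WT, 58.6 and 57.4 in CypD KO, 71.8 and 83.6 in Control, and 25.4 and 26.3 in CypD OE. It fell by 1.55 ± 0.11 (SE) on the log2 scale in CypD OE against Control (limma adjusted p = 0.00012), the largest change of any member in that comparison, and was 0.70 ± 0.11 higher in Control than in WT (limma adjusted p = 0.006). Its difference of 0.29 in CypD KO against WT did not pass the threshold (limma adjusted p = 0.0743). The ratio of *Insig1* to *Insig2* was accordingly 2.16 and 1.76 in WT, 0.979 and 0.882 in CypD KO, 1.10 and 1.00 in Control, and 2.54 and 2.29 in CypD OE. There was no overlap between WT and CypD OE on the one side and CypD KO and Control on the other. How often ratios of other gene pairs split the libraries so was not counted.

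*Srebf2*, which encodes the SREBP that acts mainly on cholesterol synthesis, was at 68.6 and 67.9 TPM in WT, 53.1 and 49.1 in CypD KO, 68.6 and 69.9 in Control, and 55.4 and 55.8 in CypD OE. It was therefore lower in CypD KO and in CypD OE, with a log2 fold change of -0.41 ± 0.05 (SE, limma adjusted p = 0.000503) in CypD KO and -0.31 ± 0.05 (limma adjusted p = 0.0027) in CypD OE against their controls. *Srebf1*, which encodes SREBP-1, active mainly on fatty acid genes, fell in CypD KO by 0.29 (limma adjusted p = 0.04), and its difference of 0.13 in CypD OE did not pass the threshold. *Scap* stood at 52.2 and 43.1 TPM in WT, 40.1 and 33.5 in CypD KO, 40.2 and 42.3 in Control, and 65.1 and 51.8 in CypD OE. *Scap* was 0.48 ± 0.14 higher on the log2 scale in CypD OE than in Control (limma adjusted p = 0.0344), with the largest spread of a called sensing gene, and -0.36 in CypD KO against WT missed the threshold (limma adjusted p = 0.0725). The call of *Srebf1* in CypD KO was lost under 9 of 15 alternative settings, and that of *Scap* in CypD OE under 6. Of the 5 sensing genes, 0 were higher and 3 lower in CypD KO, and 1 was higher and 3 lower in CypD OE. Of all genes tested, 30.1% and 18.4%, then 19.0% and 18.3%, were called so.

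In synthesis, the 7 genes from acetyl-CoA to farnesyl diphosphate had 0 higher and 3 lower in CypD KO against WT, and 0 higher and 3 lower in CypD OE against Control. Over all genes tested, 30.1% were higher and 18.4% lower in the first of these comparisons, and 19.0% and 18.3% in the second. The lower genes were *Acat2*, *Mvk* and *Pmvk* in CypD KO and *Hmgcs1*, *Mvd* and *Fdps* in CypD OE. Whether the comparisons differ in these genes was not tested. *Acat2* (ENSMUSG00000023832, chr17:13161367-13179641), the cytosolic thiolase at the head of the pathway, stood at 71.2 and 71.8 TPM in WT, 43.8 and 46.5 in CypD KO, 57.7 and 57.8 in Control, and 52.2 and 54.2 in CypD OE. It fell by 0.65 ± 0.05 (SE) on the log2 scale in CypD KO (limma adjusted p = 5.97e-05), and its change of -0.12 in CypD OE missed the threshold (limma adjusted p = 0.0868). *Mvk* and *Pmvk*, the kinases of mevalonate and of phosphomevalonate, fell by 0.35 and 0.47 in CypD KO. Both were also lower in Control than in WT, by 0.65 and 0.48. The call of *Pmvk* was lost under 3 of 15 alternative settings in CypD KO against WT and under 4 in Control against WT. *Hmgcs1*, which condenses acetoacetyl-CoA with acetyl-CoA, was at 80.6 and 83.5 TPM in WT, 79.8 and 75.7 in CypD KO, 80.0 and 76.7 in Control, and 62.4 and 63.3 in CypD OE. CypD OE was the low group for *Hmgcs1*, with a log2 fold change of -0.31 against Control (limma adjusted p = 0.00209). *Fdps* measured 177 and 188 TPM in Control, above the 136 and 130 TPM of CypD OE (log2 fold change -0.45). The decarboxylase gene *Mvd* measured 10.2 and 10.2 TPM in Control, above the 8.29 and 5.63 TPM of CypD OE. The CypD OE libraries differed more from each other than the Control libraries did, and the log2 fold change of -0.51 ± 0.16 was near the threshold (limma adjusted p = 0.0471) and lost under 10 of 15 alternative settings. The isomerase gene *Idi1* passed in neither comparison, at -0.16 in CypD KO and 0.04 in CypD OE.

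From squalene onward, the 11 sterol genes had 3 higher and 3 lower in CypD KO against WT, and 1 higher and 5 lower in CypD OE against Control. The shares of all genes were again 30.1% and 18.4%, then 19.0% and 18.3%. *Sqle* (ENSMUSG00000022351, chr15:59186869-59203043), the oxygen-dependent monooxygenase that opens the sterol branch, stood at 85.5 and 82.9 TPM in WT, 79.8 and 82.0 in CypD KO, 80.5 and 80.6 in Control, and 51.2 and 48.4 in CypD OE. Only the CypD OE libraries stood apart, and the log2 fold change against Control was -0.68 ± 0.04 (SE, limma adjusted p = 6.6e-05). In Control against WT it was -0.06 (95% interval -0.17 to 0.04), and in CypD KO against WT -0.06 (-0.16 to 0.05). *Cyp51* (ENSMUSG00000001467, chr5:4123416-4154751), the lanosterol demethylase, which also uses oxygen, was at 102 and 104 TPM in WT, 73.5 and 75.1 in CypD KO, 94.3 and 94.9 in Control, and 73.0 and 73.9 in CypD OE. *Cyp51* thus had overlapping low levels in CypD KO and CypD OE, with log2 fold changes of -0.47 ± 0.03 (limma adjusted p = 7.63e-05) and -0.36 ± 0.03 (limma adjusted p = 0.000384) against their own controls. *Hsd17b7* (ENSMUSG00000026675, chr1:169777093-169796813), a sterol ketoreductase, rose in CypD KO. It was at 17.4 and 19.8 TPM in WT, 31.8 and 31.0 in CypD KO, 10.9 and 11.4 in Control, and 10.98 and 10.79 in CypD OE. Both groups at 1% O2 were below WT, and the log2 fold change was 0.73 ± 0.08 in CypD KO against WT (limma adjusted p = 0.000391), -0.69 ± 0.08 in Control against WT (limma adjusted p = 0.0016) and -0.03 (95% interval -0.22 to 0.16) in CypD OE against Control.

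*Fdft1*, which makes squalene, stood between 28.2 and 30.1 TPM in WT, CypD KO and Control, and at 21.4 and 21.0 TPM in CypD OE, a log2 fold change of -0.45 ± 0.06 (SE) against Control (limma adjusted p = 0.00113). *Dhcr7*, which reduces 7-dehydrocholesterol to cholesterol, was at 58.9 and 56.2 TPM in WT, 62.6 and 69.3 in CypD KO, 59.1 and 61.1 in Control, and 45.7 and 49.3 in CypD OE. *Dhcr7* and the C4 demethylation oxidase gene *Msmo1* were higher in CypD KO than in WT by 0.19 and 0.13 on the log2 scale (limma adjusted p = 0.0454 and 0.0313), calls that were lost under 10 and 7 of 15 alternative settings, and lower in CypD OE than in Control by 0.33 and 0.24 (limma adjusted p = 0.0073 and 0.00415). *Nsdhl*, of the same demethylation complex, and the sterol isomerase gene *Ebp* fell in CypD KO by 0.22 and 0.28. Each of these calls was lost under 3 of 15 alternative settings, among them without WT replicate 1. *Tm7sf2*, a sterol reductase gene of low level, measured 2.90 and 2.67 TPM in Control, below the 4.55 and 4.50 TPM of CypD OE, and its log2 fold change of 0.55 ± 0.17 was near the threshold (limma adjusted p = 0.0456) and lost under 8 of 15 alternative settings. *Lss*, the lanosterol synthase gene, and *Sc5d*, a sterol desaturase gene, passed in neither comparison.

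The summed level of the 18 synthesis genes was 1034 and 1033 TPM in WT, 957 and 961 in CypD KO, 943 and 960 in Control, and 787 and 800 in CypD OE. CypD OE was the lowest group for the sum, and CypD KO and Control overlapped. The median log2 fold change of the synthesis genes was -0.08 in CypD KO against WT, -0.14 in CypD OE against Control, -0.09 in Control against WT, -0.40 in CypD OE against WT and 0.01 in CypD KO against Control, beside medians of all genes of 0.09, 0.00214, 0.01, 0.00619 and 0.07. Against WT, CypD OE had 0 synthesis genes higher and 13 lower, among them all 4 genes whose enzymes consume oxygen (*Sqle*, *Cyp51*, *Msmo1* and *Sc5d*). Of all genes tested, 14.0% were higher and 13.7% lower there. Being lower was not particular to these 4, as *Fdps*, *Nsdhl* and *Hsd17b7* were among the other lower genes. The calls of *Sc5d* and *Dhcr7* were each lost under 3 of 15 alternative settings, and that of *Idi1* under 4. CypD OE and WT differed in oxygen, plasmid and selection, which cannot be told apart. In Control against WT, which also differ in oxygen, 1 of the 4 genes with oxygen-consuming enzymes was lower (*Cyp51*), by 0.12 on the log2 scale (limma adjusted p = 0.047). This call was lost under 11 of 15 alternative settings.

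**Figure D5:**
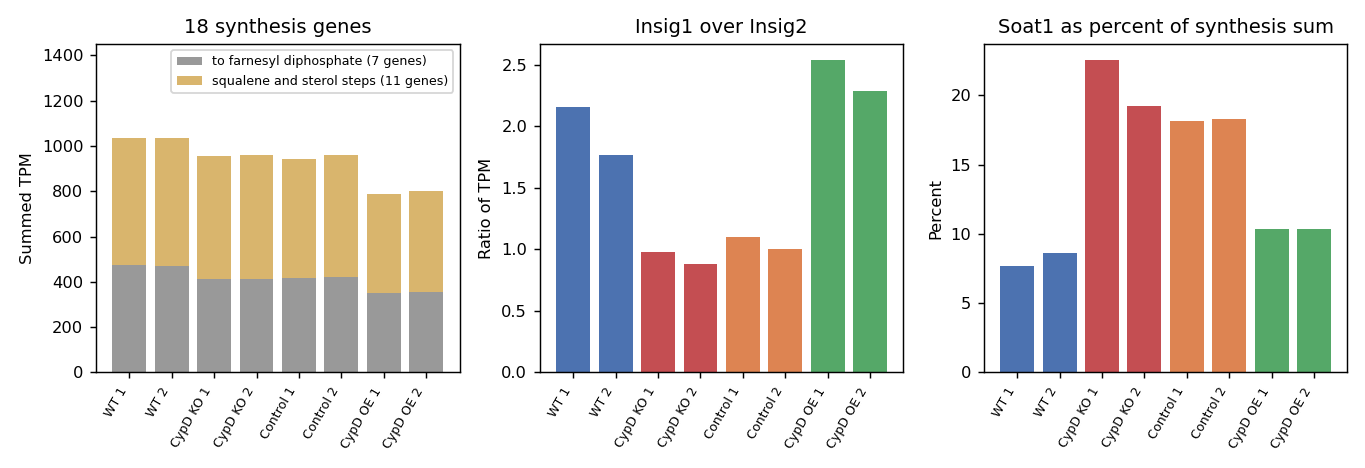
Summed TPM of the 18 synthesis genes by pathway arm (left), the ratio of *Insig1* to *Insig2* (middle) and *Soat1* as a percent of the synthesis sum (right) in each of the 8 libraries, all from 0. The synthesis sum is lowest in CypD OE, at 787 and 800 TPM, and the *Insig1* to *Insig2* ratio is near 1.0 in CypD KO and Control.

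A list of 42 other cholesterol pathway genes, chosen with earlier results known, had 36 tested. Of these, 17 were higher and 6 lower in CypD KO against WT (median log2 fold change 0.22), and 9 were higher and 8 lower in CypD OE against Control (median 0.04). The shares of all genes were 30.1% and 18.4%, and 19.0% and 18.3%. Of the 7 tested genes of uptake and the lysosome, 6 were higher and 0 lower in CypD KO against WT. In CypD OE against Control, 2 were higher and 3 lower. The same shares of all genes apply. *Mylip*, a ubiquitin ligase that marks lipoprotein receptors for degradation, stood at 8.05 and 7.04 TPM in WT and 19.9 and 19.4 in CypD KO, a log2 fold change of 1.28 (limma adjusted p = 4.97e-05). *Nceh1*, a cholesteryl ester hydrolase, stood at 40.4 and 38.6 TPM in WT and 94.3 and 91.2 in CypD KO, a change of 1.21, and *Hsd3b7*, of bile acid synthesis, changed by 1.27. In the opposite direction, *Tmem97*, a sterol-regulated membrane protein that binds NPC1, was at 105 and 105 TPM in WT and 58.6 and 51.7 in CypD KO, a change of -0.92, and *Pdss1* and *Pdss2*, which make the isoprenoid tail of ubiquinone, changed by -0.72 and -0.54. Relative to Control, *Lrp8*, a lipoprotein receptor, rose in CypD OE from 17.5 and 17.7 TPM to 56.7 and 59.1 TPM, a log2 fold change of 1.66 (limma adjusted p = 3.41e-06). The sterol carrier gene *Stard5* changed by 0.63 and *Mbtps1*, the Golgi protease that cleaves SREBP, by 0.52, whereas *Lrp1*, a lipoprotein receptor, *Lipa*, the lysosomal acid lipase, and *Hsd3b7* changed by -0.49, -0.47 and -0.40.

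Some members share sequence with another gene, and the part of this in their levels was not tested. In the GENCODE annotation, 24.8% of the exon bases of *Fdft1* overlap *Ctsb* on the opposite strand, which stood at 108 to 481 TPM, 21.1% of those of *Cyp51* overlap *Akap9*, and 9.52% of those of *Npc1* overlap *Rmc1*. For *Acat2*, 5.48% overlap *Tcp1* on the opposite strand, which stood at 550 to 821 TPM. Also on the opposite strand, 9.67% of *Npc2* overlap *Isca2* (34.59 to 53.05 TPM) and 8.97% of *Nsdhl* overlap *Cetn2* (56.4 to 77.1 TPM). For *Sqle*, 5.29% overlap *Washc5* (91.3 to 120.6 TPM). Other overlaps are not listed here. The library kit marks strand, but the strand setting of the counting was not given in the sources used here. On the same strand, 10.8% of the exon bases of *Tm7sf2* overlap *Vps51*, which stood at 17.7 to 22.7 TPM. Strand cannot separate reads there. Of windows of 100 bases, 11.8% of those of *Acat2* also occur in *Acat3* (0.3 to 1.2 TPM) and 14.9% of those of *Idi1* in *Idi1-ps1* (7.91 to 17.5 TPM), so reads there could be divided between the copies.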

How the data were processed

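RNA of 8 libraries of B16F10 cells was depleted of ribosomal RNA (KAPA RNA HyperPrep with RiboErase) and sequenced in paired-end reads of 150 bases. According to the methods and the submitters' processing notes, the authors removed adapters (Cutadapt 3.4), mapped to Ensembl GRCm39 (STAR 2.7.8a) and quantified genes (RSEM 1.3.1). The table as deposited holds TPM, with the same total in every library, so the number of reads behind a value is unknown and a few abundant transcripts lower all other values. Of 55414 genes, 30708 were listed at 0 in every library, 17942 to 19692 were above 0 per library, and 98.8% of identifiers were in GENCODE M39. All columns of the table were matched to a sample by library name (0 without one), and a name without a suffix was taken as replicate 1.

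Expression as log2(TPM + 1) was fitted by limma 3.58.1 (R 4.3.3) for the 13526 genes that reached 1 TPM in 2 or more of 8 libraries (4 group means over 8 libraries, eBayes with trend, two-sided, Benjamini-Hochberg over all genes tested, threshold 0.05). Fold changes on this scale understate the change of low genes. With 2 libraries against 2, the smallest two-sided p of exact permutation is 0.333, and it was not used. The procedure was tested on simulated data. The members and lists were chosen with earlier results of these data known. All members are named, with full values for those past the threshold and at least 0.5 on the log2 scale in CypD KO against WT or CypD OE against Control, beside up to 3 other pathway genes that rose most and 3 that fell most in each. Alternatives were an offset of 0.1, no filter, a filter of 5 TPM, median-of-ratios scaling, a fit of 4 libraries, a replicate block, eBayes without trend, and leaving out each library. Python 3.11.15 and matplotlib 3.10.9 were used for tables and figures. Sequences come from RefSeq tables, and some items are not reported here.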

Additional observations from a re-analysis of the deposited data

How the results depend on the processing

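Of 70 member results past the threshold, 0 changed sign in any of the 15 alternative settings and 24 lost the threshold in at least 1. Of 70 not past it, 28 changed sign and 15 passed in at least 1. Median-of-ratios scaling moved the median of all genes in CypD KO against WT from 0.09 to -0.00743, and with it synthesis genes higher went from 3 to 1 and lower from 6 to 11, while all genes higher went from 4066 to 3204 (30.1% to 23.7%) and lower from 2486 to 3481 (18.4% to 25.7%). Under that scaling these log2 values changed sign: in CypD KO against WT *Fdft1* at -0.11, *Tm7sf2* at -0.058, *Npc2* at -0.046, in Control against WT *Mvd* at -0.017, *Fdft1* at -0.010, *Msmo1* at -0.019, *Ebp* at -0.0094, *Srebf2* at -0.0014, in CypD OE against WT *Lss* at -0.011, in CypD KO against Control *Pmvk* at -0.073, *Sqle* at -0.086, *Sc5d* at -0.025. Without a trend, synthesis genes higher were 1 in CypD KO against WT and 2 in place of 1 in CypD OE against Control, and without a filter 0 in the latter. In the fit of 4 libraries, Control against WT had 5 synthesis genes lower in place of 8, with 998 and 983 of all genes higher and lower in place of 1634 and 1635, and CypD KO against Control had 2 synthesis genes higher in place of 4. Leaving out 1 library at a time gave 1 to 3 synthesis genes higher and 3 to 7 lower in CypD KO against WT (3 without WT replicate 1), 0 to 1 higher in CypD OE against Control, 4 to 7 lower in Control against WT and 1 to 5 higher in CypD KO against Control. Of all genes, it left 939 to 1466 higher and 983 to 1434 lower in Control against WT, and 1075 to 1785 higher and 1128 to 1773 lower in CypD OE against WT. Members that changed sign when a library was left out had log2 values between -0.09 and 0.09 with all libraries. In CypD KO against WT the lowest and highest log2 values were -0.16 and 0.041 for *Mvd*, -0.041 and 0.047 for *Fdft1*, -0.20 and 0.27 for *Tm7sf2*. In CypD OE against Control the lowest and highest log2 values were -0.10 and 0.14 for *Stard4*, -0.28 and 0.12 for *Lss*, -0.065 and 0.0042 for *Hsd17b7*, -0.071 and 0.15 for *Idi1*. In Control against WT the lowest and highest log2 values were -0.034 and 0.054 for *Fdft1*, -0.017 and 0.021 for *Msmo1*, -0.062 and 0.16 for *Srebf1*, -0.21 and 0.033 for *Stard4*, -0.099 and 0.10 for *Mvd*, -0.041 and 0.064 for *Ebp*, -0.11 and 0.29 for *Lss*. In CypD OE against WT the lowest and highest log2 values were -0.16 and 0.021 for *Stard4*, -0.048 and 0.077 for *Lss*, -0.18 and 0.033 for *Tm7sf2*, -0.11 and 0.048 for *Soat1*, -0.26 and 0.14 for *Abca1*. In CypD KO against Control the lowest and highest log2 values were -0.048 and 0.026 for *Hmgcs1*, -0.035 and 0.020 for *Fdft1*, -0.013 and 0.026 for *Sqle*, -0.087 and 0.12 for *Pmvk*, -0.057 and 0.025 for *Fdps*, -0.17 and 0.072 for *Stard4*. Replicate numbers were shared by name only, with correlations of same-numbered deviations of 0.108 between CypD KO and WT and -0.00175 between CypD OE and Control. With the number as a replicate block, synthesis genes higher in CypD OE against Control went from 1 to 0, and those lower stayed at 8. The cause of these changes was not tested.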
